A study of Mus musculus with 10 samples.

Results

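Promoters were sorted by the combination of histone marks found at them in mesoderm cells that lack functional SCL. The 4 peak lists of the Scl Delta cells, for H2AK119ub, H3K27me3, H3K27ac and H3K4me3, were set against 22359 protein-coding genes of the GENCODE M1 annotation (mm9), which have 46015 protein-coding transcription start sites (TSSs). A gene was given a mark when a peak of that list came within 2500 bp of any of its TSSs. The 4 marks give 16 possible promoter states, of which 14 held at least 1 gene, and 14081 of the 22359 genes had at least 1 mark.

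The cells came from embryonic stem cells carrying mCherry at the Scl (Tal1) locus on 1 allele, a heterozygous reporter line derived from J1 cells. They were differentiated to day 4 embryoid bodies, and the mCherry+ mesoderm cells were sorted. The genotypes were Scl wt, which is the reporter line itself, and Scl d/d (Delta), made from that line by CRISPR with both alleles deleted for the bHLH domain, the part of SCL that contacts DNA and its partner proteins. Of the 10 samples, 8 were ChIP libraries, 1 for each mark and genotype, and 2 were inputs. Every sample also carried spiked-in Drosophila S2 cells, and the strain was given as a cross of C57Bl/6 and Sv129, with the number after Sv differing between labels. Sorting was on a reporter of Scl, so the cells are those that switched on the locus, a population whose composition was not measured here. The deletion itself cannot be checked from peak lists, and with 1 library per mark there is no replicate error. The intervals below are 95% intervals that cover counting error over genes alone, and neighbouring genes that share a peak are not independent.

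Polycomb proteins keep developmental genes off in cells where they are not needed. Polycomb repressive complex 2 (PRC2) trimethylates lysine 27 of histone H3 (H3K27me3), and PRC1 ubiquitinates a lysine of histone H2A (H2AK119ub). Acetylation of the same H3 lysine (H3K27ac) marks active promoters and enhancers, and one lysine tail cannot carry both modifications. H3K4me3 is laid down at CpG-rich promoters, active or poised. Promoters with both H3K4me3 and H3K27me3 are called bivalent and are known from embryonic stem cells, where they belong to regulators of later lineages. A peak list is an average over many cells and both alleles, so 2 marks at 1 gene need not be on the same chromosome.

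The Delta lists differed widely in size, which bears on every state. H3K4me3 had 15412 peaks, H3K27me3 10881, H3K27ac 5269 and H2AK119ub 2388, against 4922 H2AK119ub peaks in WT. Median peak lengths were 1197 bp for H3K4me3, 1439 bp for H3K27me3, 524 bp for H3K27ac and 771 bp for H2AK119ub, but the longest H3K27me3 peak ran over 142959 bp. H3K27me3 peaks covered 31.0 Mb, H3K4me3 20.9 Mb, H3K27ac 3.46 Mb and H2AK119ub 2.84 Mb. Between 59.5% (H2AK119ub) and 85.6% (H3K27ac) of the peaks of a list lay at a coding TSS. The H2AK119ub peaks were of low and narrow enrichment, with a fold over input between 3.13 and 5.47, whereas H3K4me3 reached 14.69. A missing peak therefore says that the caller did not pass the region, not that the mark was absent.

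To ask how common each combination was, the genes of each state were counted. H3K4me3 marked 13477 genes (60.3% of all genes), H3K27me3 7313 (32.7%), H3K27ac 5096 (22.8%) and H2AK119ub 1118 (5.0%). The largest class had no mark, with 8278 genes (37.0%, 36.4 to 37.7). H3K4me3 alone was found at 3932 genes (17.6%, 17.1 to 18.1). The bivalent state of H3K4me3 with H3K27me3 held 3498 genes (15.6%, 15.2 to 16.1). Both marks of activity, H3K4me3 and H3K27ac, stood together without a Polycomb mark at 2777 genes (12.4%, 12 to 12.9). A further 2230 genes (9.97%, 9.59 to 10.4) had H3K4me3, H3K27me3 and H3K27ac. H2AK119ub on top of the bivalent pair was found at 953 genes (4.26%, 4.01 to 4.53). These 6 states left 503 genes with H3K27me3 alone, 75 with H3K27me3 and H2AK119ub and 53 with all 4 marks, and the other occupied states held 22 genes or fewer each. No gene had H2AK119ub with H3K27ac in the absence of H3K4me3. Few genes lay near the limit of 2500 bp. The nearest peak fell in the last 500 bp inside it at 69 H3K4me3, 77 H3K27me3, 55 H2AK119ub and 29 H3K27ac genes. In the next 500 bp outside, the same marks gave 53, 90, 35 and 37. H2AK119ub peaks mostly lay off the TSS itself, covering one at 21.1% of their genes, against 86.1% for H3K4me3. With peaks within 1000 bp, H2AK119ub with the bivalent pair was found at 708 genes in place of 953.

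**Figure D1:**
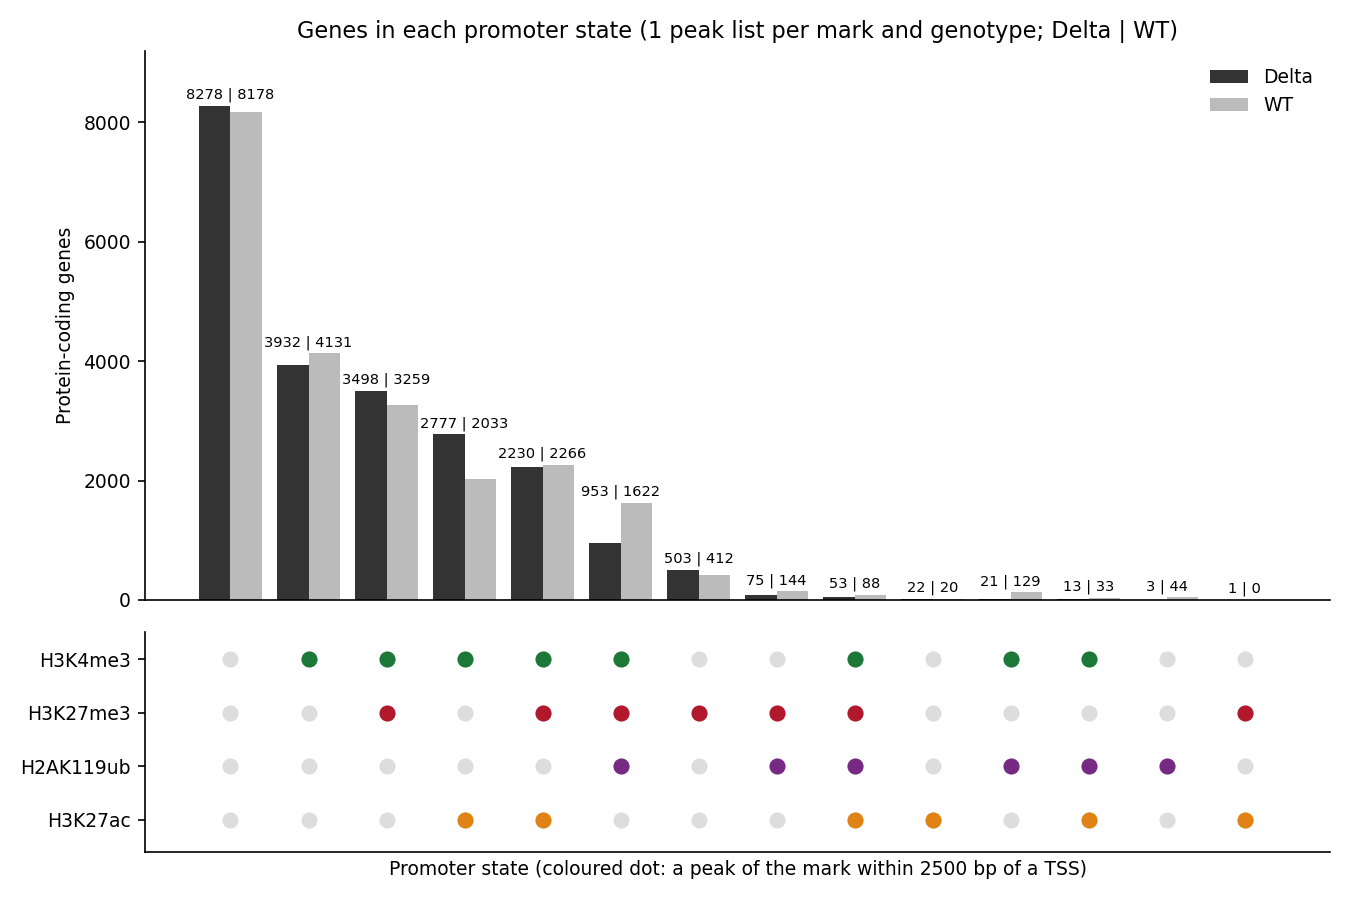
Number of protein-coding genes (bars, linear axis from 0) in each promoter state in the Delta (black) and WT (grey) peak lists, with the marks of each state as coloured dots below and both counts above the bars. The unmarked state is the tallest with 8278 genes in Delta, and the lists part most visibly at H3K4me3 with H3K27ac, with 2777 genes in Delta and 2033 in WT, and at H3K4me3 with H3K27me3 and H2AK119ub, with 953 and 1622.

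The marks were far from evenly combined. H3K27me3 was almost always seen where H3K4me3 was, at 6734 of 7313 genes (92.1%, 91.4 to 92.7), while the same 6734 genes were among 13477 with H3K4me3. H2AK119ub sat inside the H3K27me3 territory, with H3K27me3 at 1081 of 1118 genes (96.7%, 95.5 to 97.6), and their peaks overlapped at 98.1% of these 1081 genes. Only 14.8% of the H3K27me3 genes carried H2AK119ub. H3K27ac came with H3K4me3 at 5073 of 5096 genes (99.5%, 99.3 to 99.7). The pair that met least often was H2AK119ub and H3K27ac, at 66 genes, or 5.90% (4.67 to 7.44) of the H2AK119ub genes where 22.8% of all genes had H3K27ac. At those 66 genes the peaks of both marks overlapped in 9 (13.6%). For H3K4me3 and H3K27me3 the marks belonged to the same TSS at 99.7% of the shared genes and their peaks overlapped at 94.8%.

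The overlap of H3K4me3 and H3K27me3 depended on which peaks were kept. With peaks of −log10 q of at least 3, 85.5% of the H3K27me3 genes had H3K4me3, and with a fold of at least 4, 79.8%. With each list cut to its 2388 peaks of smallest p-value, the size of the shortest list, H3K4me3 was found at 3.60% of the H3K27me3 genes, and 45 genes were bivalent. With H3K27me3 cut in the same way, 82.3% of the H2AK119ub genes still had H3K27me3.

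Base composition was compared between the states, since no sequence entered their definition. The CpG ratio, the number of CpG dinucleotides over the number that the C and G content gives, was taken over the 500 bp on either side of the TSS. Its median was 0.19 in unmarked genes, 0.67 with H3K4me3 alone and 0.79 with H3K4me3 and H3K27ac. The ratio reached 0.85 (quartiles 0.76 and 0.93) with H3K4me3, H3K27me3 and H3K27ac, the highest median among the states of 50 or more genes, where all 4 marks gave 0.78 (0.73 to 0.85). Bivalent genes had a median of 0.69, and those with H2AK119ub as well had 0.71, a difference that is small beside their quartiles of 0.59 and 0.81. H3K27me3 without H3K4me3 was found on poorer sequence, with 0.41 for H3K27me3 alone and 0.49 with H2AK119ub. A ratio of at least 0.6 was reached by 1.96% of the unmarked genes and by 94.5% of the genes with H3K4me3, H3K27me3 and H3K27ac.

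The 200 bases before the TSS of 6 genes are shown to make the difference in CpG content visible; each gene was taken from the gene lists below for a CpG ratio near the median of its state. The sequences are from the mm9 (NCBIM37) genome, 5′ to 3′ on the strand of the gene, and capitals mark the CpG dinucleotides. Vmn1r223, a pheromone receptor gene with no mark, has 4 CpGs (chr13:23340907-23341106, + strand). Ndufs4, a subunit of respiratory complex I with H3K4me3 alone, has 5 (chr13:115178303-115178502, − strand). Psmb1, a proteasome subunit with H3K4me3 and H3K27ac, has 15 (chr17:15635241-15635440, − strand). Hist3h2ba, a bivalent histone gene, has 3 in this stretch although its ratio over the wider window is 0.71 (chr11:58762213-58762412, + strand). Klf2, a zinc-finger factor with H3K4me3, H3K27me3 and H2AK119ub, has 25 (chr8:74842732-74842931, + strand). Krt83, a keratin gene with H3K27me3 alone, has 17 and a ratio of 0.58, above the 0.41 of its state (chr15:101269236-101269435, − strand).
Vmn1r223: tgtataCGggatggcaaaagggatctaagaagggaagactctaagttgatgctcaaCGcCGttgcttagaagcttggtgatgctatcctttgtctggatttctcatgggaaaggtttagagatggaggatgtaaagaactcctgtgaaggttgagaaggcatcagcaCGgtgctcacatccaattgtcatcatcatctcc
Ndufs4: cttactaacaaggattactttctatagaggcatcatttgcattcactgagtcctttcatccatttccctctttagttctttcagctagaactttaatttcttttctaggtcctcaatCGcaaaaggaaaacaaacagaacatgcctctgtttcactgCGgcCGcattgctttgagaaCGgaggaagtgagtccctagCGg
Psmb1: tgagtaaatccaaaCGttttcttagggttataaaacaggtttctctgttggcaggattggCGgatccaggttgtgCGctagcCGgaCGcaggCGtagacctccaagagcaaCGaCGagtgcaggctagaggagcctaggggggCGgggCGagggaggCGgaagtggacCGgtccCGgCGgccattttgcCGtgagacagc
Hist3h2ba: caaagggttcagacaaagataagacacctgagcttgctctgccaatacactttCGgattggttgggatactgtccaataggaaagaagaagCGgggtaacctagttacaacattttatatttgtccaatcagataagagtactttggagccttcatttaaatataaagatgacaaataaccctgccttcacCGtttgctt
Klf2: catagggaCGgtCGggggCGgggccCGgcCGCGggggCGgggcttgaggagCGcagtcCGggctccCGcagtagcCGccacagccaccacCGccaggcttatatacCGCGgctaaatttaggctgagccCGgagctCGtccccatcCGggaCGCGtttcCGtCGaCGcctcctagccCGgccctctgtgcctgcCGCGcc
Krt83: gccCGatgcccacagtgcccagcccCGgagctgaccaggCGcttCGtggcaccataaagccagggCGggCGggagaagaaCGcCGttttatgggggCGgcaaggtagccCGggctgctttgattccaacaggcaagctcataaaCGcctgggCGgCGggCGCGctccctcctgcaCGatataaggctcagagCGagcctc

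Short motifs in the 250 bases before the TSS, searched on both strands, also differed between the states. GGGCGG, the core of the GC box, was present at 8.85% of the unmarked genes and at 56.0% to 67.2% of the 5 large marked states, against 40.9% of all genes. TATAAA, the TATA box, ran the other way, with 22.7% of the unmarked genes and 4.53% to 6.46% of those states, against 12.2% of all genes. CCGGAAG, the core that ETS factors bind, separated states of similar CpG content. It was found at 17.8% of the genes with H3K4me3 and H3K27ac, at 16.5% when H3K27me3 was there too and at 13.8% with H3K4me3 alone. Bivalent genes had it at 6.58% and those with H2AK119ub at 3.46%, against 8.39% of all genes. A match to letters is not a bound site, and GGGCGG and CCGGAAG both contain a CpG, so their shares move with base composition.

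The states with H3K27ac held more divergent promoters, where another gene starts on the opposite strand within 1000 bp. These made up 20.9% of the genes with H3K4me3 and H3K27ac, 20.6% with H3K27me3 added and 13.3% with H3K4me3 alone, against 8.60% of all genes. Bivalent genes had a divergent neighbour at 6.69% and those with H2AK119ub at 4.09%. Chromosome 8 held 10.8% of the 953 genes with H3K4me3, H3K27me3 and H2AK119ub and 7.94% of the genes with H3K4me3, H3K27me3 and H3K27ac, against 4.84% of all genes, and chromosome 1 held 8.92% and 9.51%, against 5.54%. The cause was not tested. Leaving out chromosomes 1, 8 and X moved none of the shares of mark pairs or median lengths compared beyond its limit. For state sizes this check could not decide, since no large state has enough genes on these chromosomes to pass the limit. The state of 953 genes fell to 765.

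Next, the lengths of the peaks were compared between states that share a mark; the states used only the presence of a peak. For each gene the longest peak of the mark at its TSSs was taken. H3K27me3 split into 3 length classes. Where H3K4me3 and H3K27ac were both present its median length was 556 bp (526 to 583), in bivalent genes 2632 bp (2522 to 2712), and with H2AK119ub on top 7768 bp (7329 to 8260). The median fold over input followed the same order, 3.53, 4.49 and 8.07. The order of both measures was seen on 19 of 19 autosomes in each step. H3K27me3 peaks shorter than 1000 bp accounted for 1700 of the 2230 genes with H3K27ac (76.2%) and for 9 of the 953 genes with H2AK119ub (0.944%). Peaks of at least 10000 bp were found at 3 and 361 genes of the same states.

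The same classes appeared when the WT H3K27me3 list, which did not define them, was read at these genes. WT had an H3K27me3 peak at 951 of the 953 genes with H2AK119ub (99.8%), with a median of 7573 bp, and at 88.5% of the bivalent genes, with 2947 bp. At the genes with H3K4me3, H3K27me3 and H3K27ac it was called at 1612 of 2230 (72.3%), with a median of 732 bp. The short peaks were called again less often than the others of that state, at 66.9% (64.6 to 69.1) against 89.6% (86.7 to 91.9) of the genes with a peak of 1000 bp or more. An alternative chosen after seeing these values, which counted only H3K27me3 peaks of 1000 bp or more, reduced the 2230 genes to 530 and raised the genes with H3K4me3 and H3K27ac from 2777 to 4477.

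H3K4me3 was longest where H3K27ac was present. Its median was 1131 bp alone, 1780 bp with H3K27ac and 2160 bp with H3K27ac and H3K27me3, and its fold rose in the same order, 6.18, 7.19 and 8.31, on 19 of 19 autosomes in each step. With each list cut to 2388 peaks the last step turned, with 2022 bp with H3K27ac and 1937 bp at the 14 genes with H3K27me3 added. In bivalent genes the length was 1101 bp, higher than alone on 6 of 19 autosomes, and the fold was 5.62. With H2AK119ub as well H3K4me3 had the lowest median fold of the large states, 4.95, at a length of 1270 bp. H3K27ac peaks were 500 bp long with H3K4me3 and 681 bp with H3K27me3 added. H2AK119ub peaks were short in every state, with medians of 851 bp at the bivalent genes, 996 bp with H3K27me3 and no H3K4me3, and 717 bp where all 4 marks met.

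**Figure D2:**
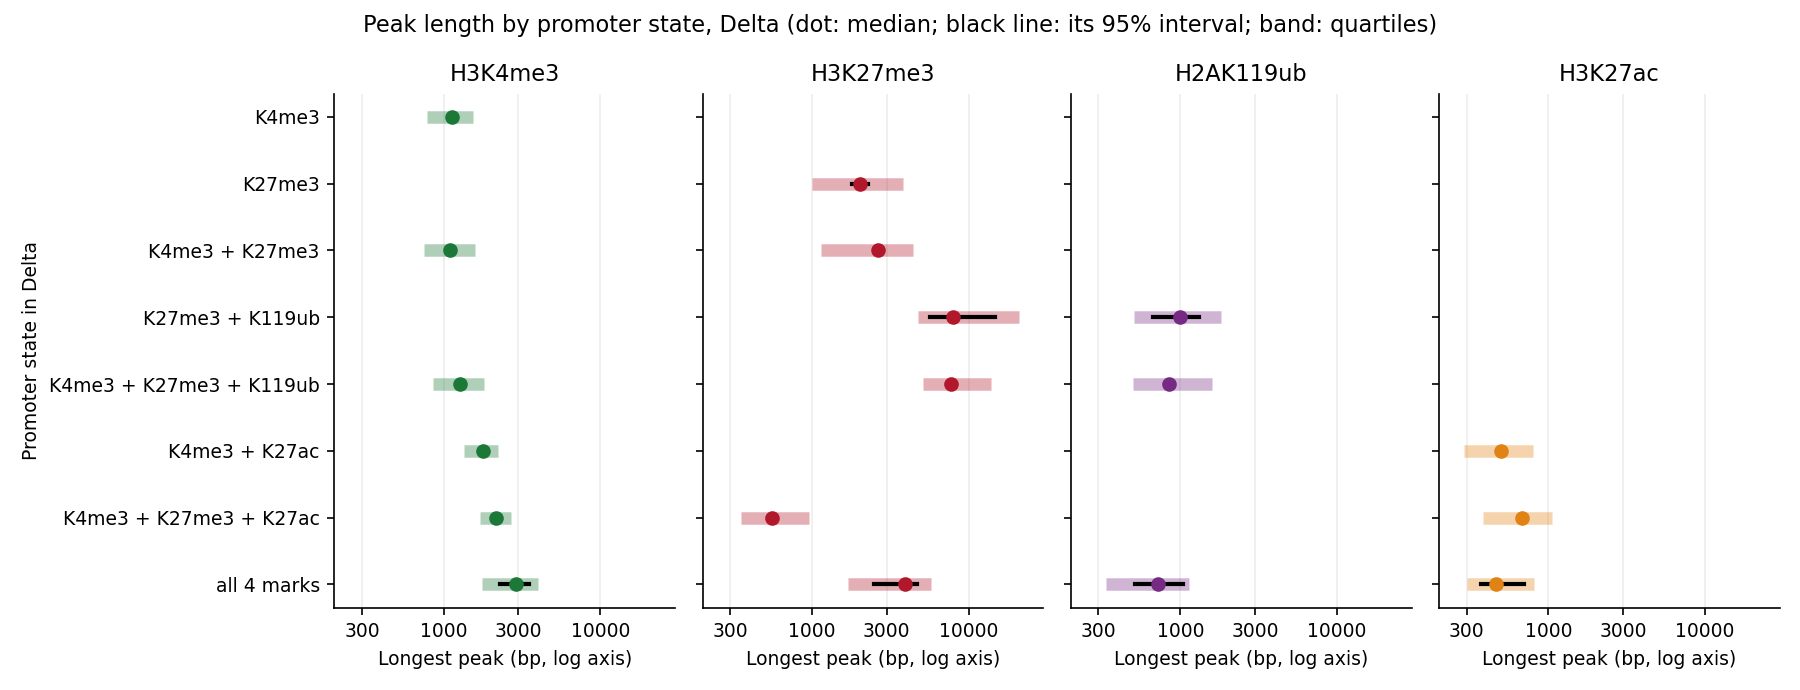
Length of the longest peak at each gene (bp, log axis) for the 4 marks in the Delta lists, by promoter state (states of 50 genes or more), with the median as a dot, its 95% interval as a black line (hidden behind the dot where narrow) and the quartiles as a band. The H3K27me3 medians spread from 556 bp with H3K4me3 and H3K27ac to 7940 bp with H2AK119ub and no H3K4me3, whereas the H2AK119ub medians of the plotted states lie between 717 and 996 bp.

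Length and state could also be read the other way round. Of the genes with an H3K27me3 peak under 500 bp, 69.4% had H3K27ac and 0.207% had H2AK119ub. Between 2000 and 5000 bp the shares were 8.99% and 10.9%, and at 20000 bp and over they were 1.54% and 87.7%. H3K4me3 varied little over the same bins, between 87.2% and 97.0%. The WT lists gave the same order at each end, with H2AK119ub rising from 2.14% to 94.5% and H3K27ac at 58.8% in the first bin and 0.552% in the last. H3K4me3 length sorted H3K27ac as well, from 2.23% of the genes with peaks under 500 bp to 72.9% at 3000 bp and over, but not H3K27me3, which was lowest at 44.1% for peaks of 1000 to 1500 bp and highest at 69.3% for the longest. Long peaks also reached several genes: 25.1% of the 953 genes with H3K4me3, H3K27me3 and H2AK119ub shared their longest H3K27me3 peak with another gene, and the part of this in the shares was not tested.

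**Figure D3:**
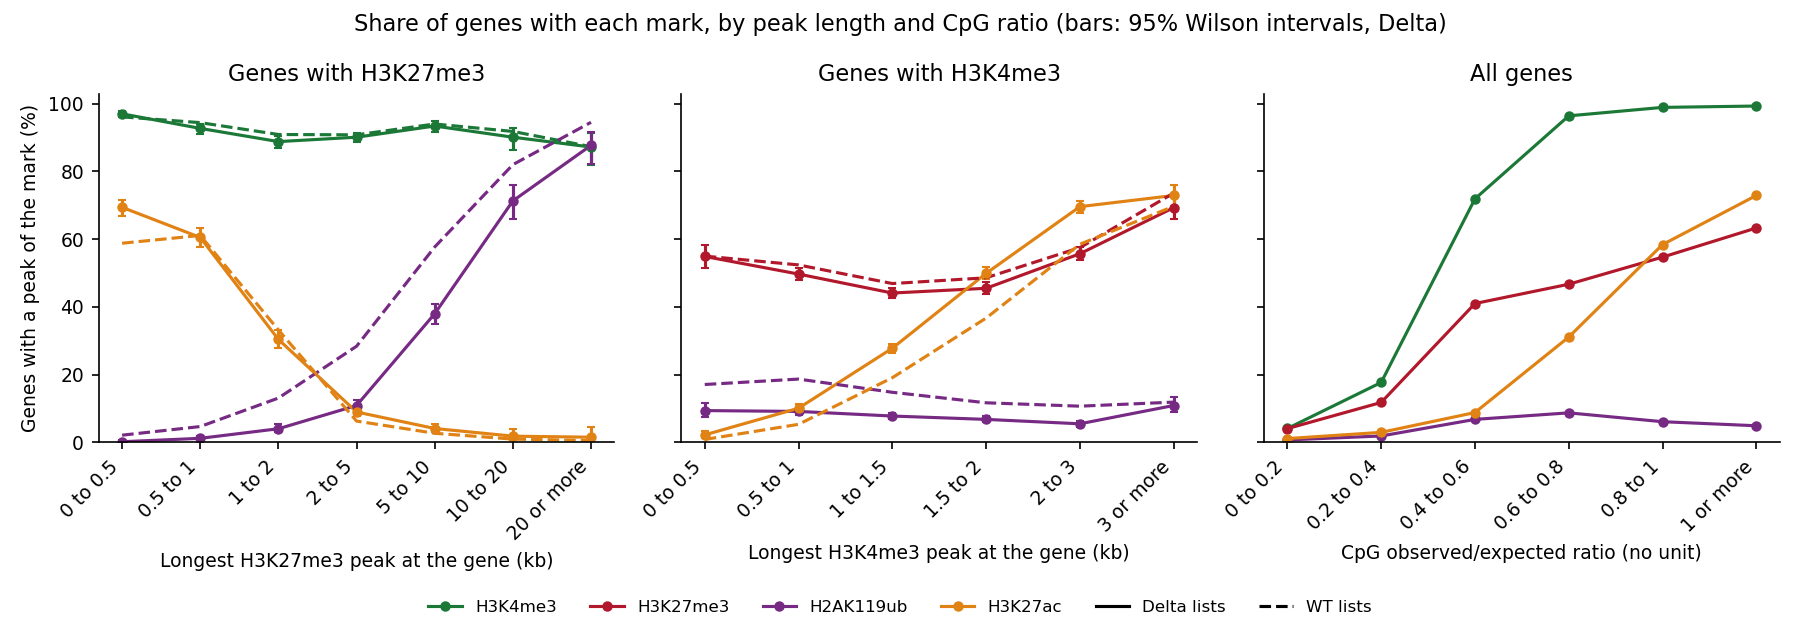
Share of genes with a peak of each mark (%, with 95% Wilson intervals for Delta in the length panels) by the length of the longest H3K27me3 peak (left), by the length of the longest H3K4me3 peak (middle) and, over all 22359 genes, by CpG ratio (right); solid lines are the Delta lists and dashed lines the WT lists. H2AK119ub and H3K27ac change order at the bin of 2000 to 5000 bp of H3K27me3, and H3K4me3 climbs from 4.12% of the genes with a CpG ratio under 0.2 to 99.3% of those at 1 and over.

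CpG ratio alone ordered 3 of the marks. From the lowest to the highest bin H3K4me3 rose from 4.12% to 99.3% of the genes, H3K27ac from 1.14% to 72.9% and H3K27me3 from 4.08% to 63.3%. H2AK119ub did not follow, and was highest at 8.73% in the bin from 0.6 to 0.8. Between that bin and the highest, the states with H3K27me3 parted. H3K4me3 with H3K27me3 and H3K27ac rose from 10.8% to 43.2% of the genes. The bivalent state fell from 26.3% to 15.2%, and the state with H2AK119ub in addition fell from 7.85% to 3.58%.

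To see where the marks lay, peak coverage was followed across the TSS with the most marks at each gene. At the 953 genes with H3K4me3, H3K27me3 and H2AK119ub, H3K27me3 covered the TSS at 88.6% of the genes and the point 1000 bp downstream at 95.1%. H2AK119ub dipped at the start site, with 22.7% of the genes at 1000 bp upstream, 14.7% at the TSS and a maximum of 41.9% at 1150 bp downstream, while H3K4me3 was highest, at 81.5%, 150 bp downstream. In the WT lists the same genes gave 27.9%, 21.0% and 43.4% for H2AK119ub at the same points. In the genes with H3K4me3, H3K27me3 and H3K27ac the short H3K27me3 peaks lay just downstream, covering 22.5% of the genes at the TSS and 65.9% at 350 bp, beside H3K27ac with 75.2% at 250 bp. Here the H3K27me3 peak lay wholly inside the H3K4me3 peak at 1909 of 2230 genes (85.6%). The nesting was inverted with H2AK119ub, where the H3K4me3 peak lay inside the H3K27me3 peak at 828 of 953 genes (86.9%). Bivalent genes were mixed, with H3K4me3 inside H3K27me3 at 51.6%.

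**Figure D4:**
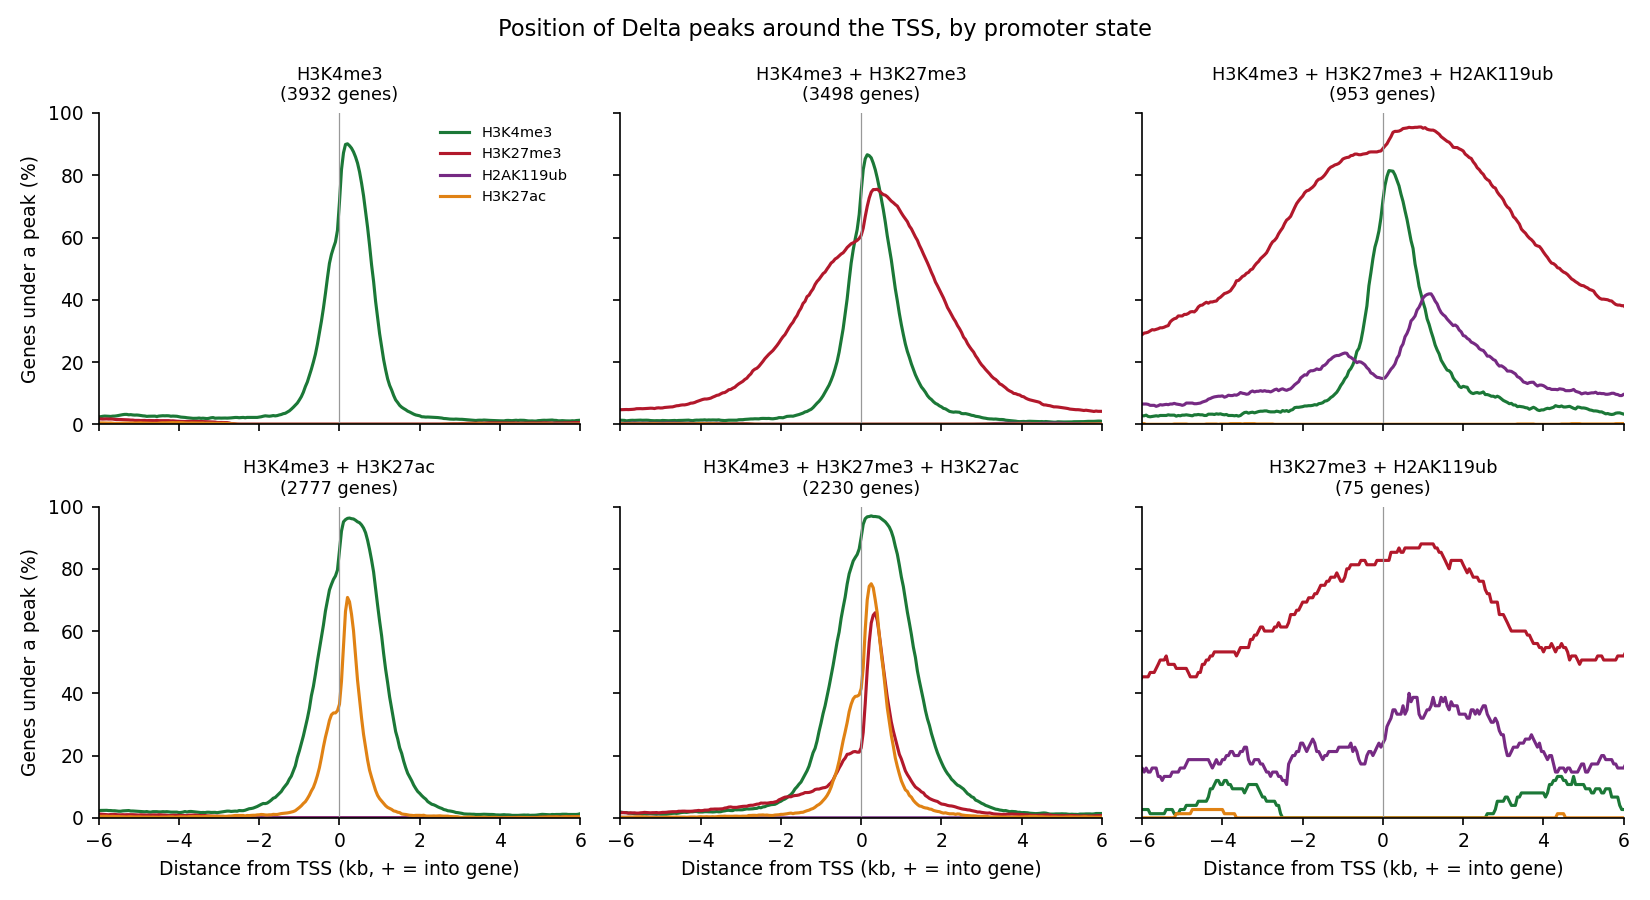
Share of genes (%) whose position lies under a Delta peak of each mark, from 6 kb before to 6 kb after the TSS in the direction of transcription, for 6 promoter states. H2AK119ub shows a dip to 14.7% at the TSS and a maximum of 41.9% at 1150 bp in the state with H3K4me3 and H3K27me3, and H3K27me3 narrows to a maximum of 65.9% at 350 bp in the state with H3K4me3 and H3K27ac.

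The states were then read through gene families and lineage lists. Hox genes, which set position along the body axis, all had H3K27me3 (40 of 40, against 32.7% of all genes), and 37 had H2AK119ub (92.5%, against 5.0%). Of these 37, 29 also had H3K4me3 and 8 did not, and no Hox gene had H3K27ac. The 40 entries stand for 39 gene names: Hoxa3 has 2 entries, 1 with and 1 without H3K4me3. Hoxb2, Hoxd1 and Hoxd8 were bivalent without H2AK119ub. Most of each cluster lay under 1 long H3K27me3 peak, so its genes are not separate observations. The peaks measured 142959 bp over Hoxc (chr15:102735441-102878399), 116140 bp over Hoxa (chr6:52110659-52226798), 113628 bp over Hoxd (chr2:74482342-74595969) and 108486 bp over Hoxb (chr11:96110852-96219337). Outside the long Hoxb and Hoxd peaks, Hoxb13 had one of 49732 bp, Hoxd1 one of 5535 bp and Hoxb1 one of 3618 bp. Within these domains H3K4me3 was short, from 203 to 3089 bp with a median of 822 bp over the 32 Hox genes that had it. H2AK119ub peaks ran from 490 to 13474 bp. Gm17649, inside Hoxc, and Gm53, at the low-coordinate end of the Hoxb peak (chr11:96112419-96126182), shared the Hox peaks.

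Regulators of other lineages came next. Of the 19 neural transcription factors, 16 had H3K4me3, H3K27me3 and H2AK119ub (84.2%, against 4.26% of all genes), and none had H3K27ac. Their H3K27me3 peaks ran from 8201 bp in Neurod1, which drives neuronal differentiation, through 20191 bp in Olig2, a motor neuron and oligodendrocyte factor, to 39584 bp in Pax2, a factor of the midbrain and kidney. Neurod1 and Sox3, a factor of neural progenitors, were among the 3 that lacked an H2AK119ub peak, although Sox3 had 13986 bp of H3K27me3. Of the 19 paraxial and early mesoderm factors 10 were in this state, among them Pax3 (35154 bp of H3K27me3) and Pax7 (39999 bp), both of the muscle lineage, and Foxc2 (22022 bp), a mesenchyme factor. Uncx and Mesp2, of the somites, had H3K27me3 and H2AK119ub without H3K4me3. Brachyury (T) and Eomes, which start mesoderm, were bivalent with 2562 and 5793 bp. Tbx6, needed for paraxial mesoderm, had H3K4me3 alone over 414 bp. Msgn1 and Meox1 had no mark. Mixl1, an early mesendoderm gene, was one of the 13 genes with H3K4me3, H2AK119ub and H3K27ac.

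Each of the 16 cardiac transcription factors had both H3K4me3 and H3K27me3, and 9 had H2AK119ub (56.2%), where 60.3%, 32.7% and 5.0% of all genes had these marks. H3K27me3 was longest at Hand2, needed for the right ventricle, with 47317 bp, followed by Gata4 with 24976 bp and Isl1, of the second heart field, with 21728 bp. H3K27ac was called at 4 of the 16 factors, a share close to the 22.8% of all genes that had it. Of these, Hand1, Tbx20 and Tbx3 had H3K27ac with H3K27me3 and no H2AK119ub, and Gata6 had all 4 marks. The H2AK119ub peak at Gata6 was 213 bp long, near the 194 bp of the shortest peak in that list. Hand1, a factor of the left ventricle and the extraembryonic mesoderm, had 6624 bp of H3K4me3, 6825 bp of H3K27me3 and 1291 bp of H3K27ac in Delta. In WT its H3K4me3 peak was 3056 bp, its H3K27me3 peak 15101 bp, H2AK119ub was called over 1048 bp and H3K27ac was not called. Tbx20 had H3K27ac of 164 bp in Delta, the length of the shortest peak in that list. Its H3K27me3 was 4872 bp in Delta and 13374 bp in WT, where H2AK119ub was called over 1706 bp and H3K27ac was not called. Tbx3 differed from both in having H3K27ac in each list, 1029 bp in Delta and 321 bp in WT, where H2AK119ub was called over 1812 bp and H3K27me3 over 3823 bp, against 2560 bp in Delta. Each value is from 1 library, so none of these differences has an error.

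Of the 23 blood transcription factors matched, 20 had H3K27me3 (87.0%, against 32.7% of all genes), 8 had H2AK119ub (34.8%, against 5.0%) and 2 had H3K27ac (8.70%, against 22.8%). WT had H3K27ac at 11 of the 23. Tal1 itself (Scl, chr4:114729031-114744360, + strand) was bivalent in Delta, with a longest H3K4me3 peak of 4175 bp at a fold of 4.72 and H3K27me3 of 3790 bp at 3.59. In WT its H3K4me3 peak was 6092 bp at 7.87, H3K27me3 was 1800 bp and H3K27ac was called over 1833 bp. Fli1, Erg, Lmo2 and Hhex, a group of early haemato-endothelial regulators, were also bivalent in Delta and had H3K27ac as well in WT. Gata2, a transcription factor of blood stem cells, carried 15273 bp of H3K27me3 and 2922 bp of H2AK119ub in Delta. In WT these marks measured 5599 bp and 3454 bp there, and an H3K27ac peak of 189 bp was called. Lyl1, the close relative of Tal1, carried 18494 bp of H3K27me3 and 6379 bp of H2AK119ub. Runx1, needed for definitive blood, had all 4 marks in Delta, with 3562 bp of H3K27me3 and 721 bp of H3K27ac, whereas in WT it was bivalent, with 6428 bp of H3K4me3 and 4043 bp of H3K27me3 and no peak of the other marks. Gata1, the erythroid factor, and Sfpi1, the myeloid factor PU.1, had no mark in Delta. In WT, H3K4me3 was called over 1129 bp at Gata1 and H3K27ac over 729 bp at Sfpi1. Zfpm1, the partner of Gata1, was the other gene with H3K27ac. The Delta and WT lists share no library, but each is 1 sample, and a difference between them is one between libraries.

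Endothelial genes were split. Cdh5, Pecam1, Tie1, Tek, Emcn, Notch4 and Robo4 had no mark in Delta (7 of 21, 33.3%), a share close to the 37.0% of all genes. In WT, Cdh5 and Tek had H3K4me3. Dll4, a Notch ligand of arteries, and the Sox genes Sox7, Sox17 and Sox18 had H3K4me3, H3K27me3 and H2AK119ub. Kdr, the receptor of the growth factor VEGF that marks the mesoderm from which blood arises, was bivalent with 2957 bp of H3K4me3 and 875 bp of H3K27me3. Etv2, which specifies haemangioblasts, had H3K4me3 alone over 2297 bp. Of the marker genes for other lineages, Afp, Ttr and Cer1 of the endoderm had no mark, nor did Hbb-bh1, an embryonic globin, and Ptprc, which marks white blood cells. Hba-x, also a globin, had H3K27me3 alone. Of the 5 mesoderm markers, Kdr, T and Pdgfra were bivalent, Mesp1 had H2AK119ub in addition and Mixl1 had H3K4me3, H2AK119ub and H3K27ac. Bivalent markers of other types were Neurod1 of neurons, Itga2b of blood and Twist1, Thy1 and Col1a1 of fibroblasts, and Pax6 and Olig2 of the neural lineage, Foxa2 of the endoderm and Klf1 of blood were in the state of Mesp1. Col1a2 of fibroblasts had H3K4me3 alone.

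Among the remaining developmental families, H3K4me3 with H3K27me3 and H2AK119ub held 18 of 43 forkhead genes (41.9%), 7 of 19 Wnt ligand genes (36.8%) and 5 of 11 endoderm genes (45.5%), against 4.26% of all genes. Foxf1a, a forkhead factor of lateral mesoderm, had all 4 marks under an H3K27me3 peak of 20840 bp. Of the 19 pluripotency genes matched, Nanog, Dppa2, Dppa4 and Dppa5a had no mark. Sox2, which neural progenitors use as well, carried 19213 bp of H3K27me3. Klf4, Lin28a, Sall4 and Tbx3 had H3K27ac with H3K27me3. Pou5f1 (Oct4) was bivalent by short peaks, 343 bp of H3K4me3 and 230 bp of H3K27me3.

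Housekeeping families took other states. Of the 80 cytosolic ribosomal protein genes, 77 had H3K4me3 (against 60.3% of all genes), 72 had H3K27ac (90.0%, against 22.8%) and none had H2AK119ub (against 5.0%), while 56 of the 80, against 9.97% of all genes, also had H3K27me3. In those 56 genes the H3K27me3 peaks ran from 230 to 1506 bp with a median of 606 bp, against 1190 to 5408 bp for H3K4me3 and 275 to 1798 bp for H3K27ac. WT had an H3K27me3 peak at 54 of the 56, of 274 to 1960 bp. With only H3K27me3 peaks of 1000 bp or more counted, the 56 genes fell to 7, and 65 of the 80 had H3K4me3 and H3K27ac. Rpl10, Rpl39 and Rps4x, on the X chromosome, had H3K4me3 alone. The state of these genes also had the highest median H3K4me3 fold, 8.31, and the part of this in their short H3K27me3 peaks was not tested.

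The proteasome subunit genes, which encode the main protease of the cell, divided between H3K4me3 with H3K27me3 and H3K27ac (16 of 41, 39.0%, against 9.97% of all genes) and H3K4me3 with H3K27ac (12 of 41, 29.3%, against 12.4%). The 41 entries stand for 39 gene names, since Psmb9 and Psmd14 each have 2 entries. Complex I subunits, of the respiratory chain, were mostly H3K4me3 alone (20 of 37, 54.1%, against 17.6% of all genes), with Ndufb8 entered 2 times. Replication-dependent histone genes had H3K4me3 alone (31 of 67, against 17.6% of all genes) or H3K4me3 with H3K27ac (24 of 67, against 12.4%), and 4 of the 67 had H3K27me3, against 32.7%.

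The genes of the Polycomb complexes themselves all had H3K4me3, and 18 of 32 had H3K27ac (56.2%, against 22.8%). Ezh2, the PRC2 enzyme, and Eed, its H3K27me3 reader, had H3K4me3 and H3K27ac without a Polycomb mark in Delta, as did Rybp, a subunit of variant PRC1, with 2976 bp of H3K4me3 and 1832 bp of H3K27ac. Suz12, a core PRC2 subunit, and the PRC1 enzymes Ring1 and Rnf2 had H3K27me3 too, over 307, 926 and 544 bp. Bmi1 and Cbx8, subunits of canonical PRC1, had H3K4me3, H3K27me3 and H2AK119ub, with 6292 bp of H3K27me3 at Bmi1 and 34090 bp at Cbx8. Pcgf5, a variant PRC1 subunit, was bivalent with 1699 bp.

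Genes of specialised tissues were mostly unmarked, among them 1084 of 1087 olfactory receptor genes (99.7%), 319 of 320 vomeronasal receptor genes and 88 of 96 keratin and keratin-associated genes, against 37.0% of all genes. Clustered protocadherins, adhesion molecules of neurons, were the exception among long gene arrays, with H3K27me3 alone at 16 of 24 (66.7%, against 2.25% of all genes). Their H3K27me3 peaks reached 13023 bp at most. Pcdhgc5, which also had H3K4me3 and H3K27ac, had an H3K27me3 peak of 43612 bp.

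**Figure D5:**
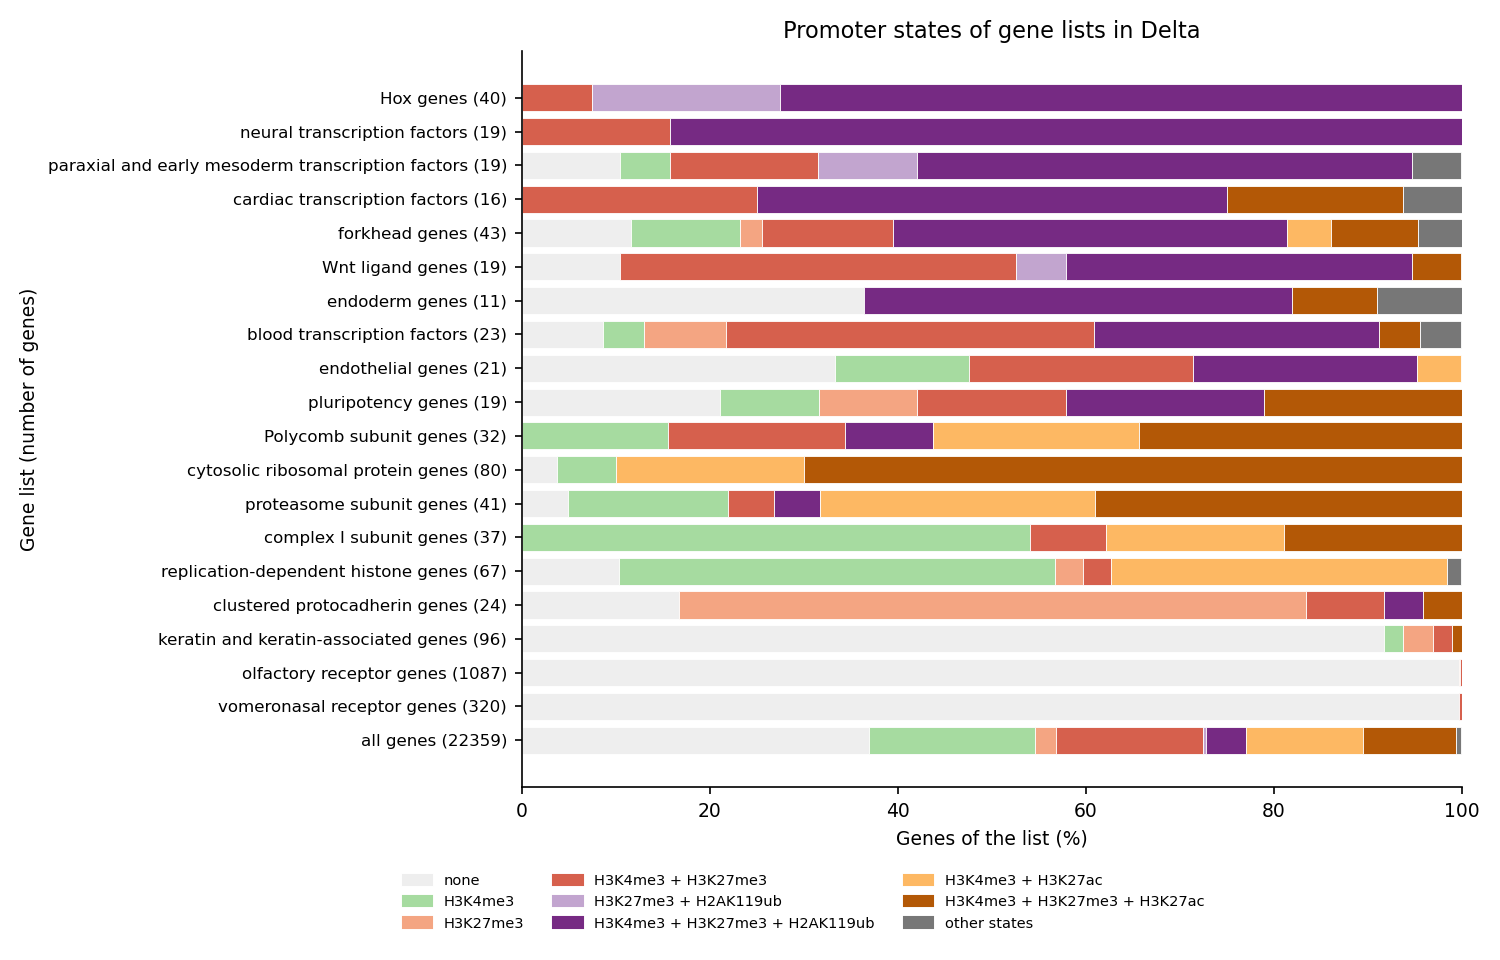
Share of the genes of each list (%, linear axis from 0 to 100) in each promoter state in Delta, with the number of genes in brackets and all 22359 genes in the lowest bar. Hox and neural factor genes are 72.5% and 84.2% in the state of H3K4me3, H3K27me3 and H2AK119ub, 56 of 80 ribosomal protein genes are in that of H3K4me3, H3K27me3 and H3K27ac, and olfactory receptor genes are 99.7% unmarked.

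Long peaks picked out further genes. The longest H3K4me3 peak without another mark lay at Evx1, beside the Hoxa cluster, with 6660 bp, followed by Spry2, an inhibitor of growth factor signalling, with 6292 bp. Setd1b, an H3K4 methyltransferase, and Cks1b, of the cell cycle, led the genes with H3K4me3 and H3K27ac at 9459 and 6790 bp. The longest peaks of H3K27me3 alone were at Ccdc33 and Stra6 (24543 bp, 1 peak for both) and at Prhoxnb (24277 bp, a peak that also reaches Cdx2). Bub3, of the mitotic checkpoint, was given H3K27me3 by a 22551 bp peak that also covered the neighbouring Hmx2 and Hmx3 and ended upstream of its start (chr7:138680475-138703025). Nr4a2, a nuclear receptor, had all 4 marks with 18868 bp of H3K27me3. Rarg, a retinoic acid receptor, with 6370 bp of H3K4me3, and Speg, of muscle, with 2157 bp of H2AK119ub, led the 21 genes with H3K4me3 and H2AK119ub. The 3 genes with H2AK119ub alone were Btbd17, Gm6569 and Psors1c2, and Tnni1, a troponin, was the 1 gene with H3K27me3 and H3K27ac. Gm10277 and A930004D18Rik had the longest H3K27ac peaks of the 22 genes with H3K27ac alone, 2065 and 1446 bp.

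Finally, the Delta states were compared with those of WT, where the same genes were read in the other lists. Of the 14081 genes with a mark in Delta, 8529 (60.6%, 59.8 to 61.4) were in the same state in WT. The share was highest for H3K4me3 with H3K27me3 and H2AK119ub, at 779 of 953 (81.7%, 79.2 to 84.1), and 71.1% for H3K4me3 alone. It was 62.3% for bivalent genes, 56.2% for H3K4me3 with H3K27me3 and H3K27ac, 41.9% for H3K4me3 with H3K27ac and 26.4% for all 4 marks. Read from the WT states, the order was not the same. Of the 1622 WT genes with H3K4me3, H3K27me3 and H2AK119ub, 779 were in that state in Delta. The shares were larger for H3K4me3 alone, at 2796 of 4131 WT genes, and for bivalent genes, at 2178 of 3259. Of the 3498 bivalent genes, 703 (20.1%) had H2AK119ub in addition in WT, where the list holds 4922 H2AK119ub peaks against 2388. These 703 genes had a median Delta H3K27me3 length of 4412 bp (4124 to 4601), above the 2704 bp (2609 to 2813) of those that were bivalent in WT too. Of the 2777 genes with H3K4me3 and H3K27ac, 717 (25.8%) had H3K27me3 as well in WT. The difference in the length of the lists and the genotype cannot be told apart with 1 library of each.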

How the data were processed

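Histone ChIP was done with spiked-in Drosophila S2 cells, mixed 2 mouse to 1 fly, on sorted day 4 cells, with 1 library per mark and genotype. Per the study's methods and the submitters' processing notes, reads were aligned to mm9 and dm3 (Bowtie, Trim Galore, SAMtools and bedtools are named) and broad peaks were called with MACS2 2.0.10 against the input of the same genotype. The spike-in scaling concerned tracks, not peak calls. The deposited peak lists give, per peak, a score (10 times −log10 q), a fold enrichment ratio over input, and −log10 p and −log10 q values as the authors' caller wrote them. The largest q in a list was between 0.0432 and 0.0500. The lists hold no read counts. The study gives total and mapped reads for each library, which were not used here. Spread between replicates cannot be given.

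From these lists, Python 3.11.15 with numpy 2.4.6, pandas 2.3.3, scipy 1.17.1 and matplotlib 3.10.9 gave each gene on a nuclear chromosome its state by the peaks within 2500 bp of any coding TSS. Peak assignment was checked on simulated peaks (4445 of 4445 genes recovered) and against bedtools 2.31.1, with 0 genes differing for each mark. Where 1 TSS was needed (position, CpG ratio, motifs), the TSS with the most Delta marks was used, the 5′-most on ties. Shares have Wilson intervals and medians binomial order-statistic intervals, both at 95%. No test was run, since each group is 1 library and genes are not replicates. Named genes were members of the gene lists, the 2 genes with the longest peak in each state of 20 or more genes, all genes of states of 8 or fewer, and Tal1. The members and the lists were chosen with earlier results of these data known, and some genes stand in 2 lists. Alternatives changed the distance, the peak threshold, the number of peaks, the TSS used, the coverage required, the joining of peaks, the chromosomes and the CpG window. Some items are not reported here.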

Additional observations from a re-analysis of the deposited data

How the results depend on the processing

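No paired analysis was possible because each mark was sequenced in a single library of either genotype. Over 13 alternatives to 21 results, 108 of 173 values moved by less than the counting interval or, for state sizes, by less than 1.5 times. At distances of 1000 and 5000 bp no main value moved beyond these limits. The exception was the median H3K27me3 length of bivalent genes, 2755 bp at 1000 bp. The single TSS with the most marks, leaving out chromosomes 1, 8 and X, and the CpG ratio at the 5′-most TSS moved none. The limit of 1.5 times is wide. The state of H3K4me3, H3K27me3 and H2AK119ub held 708 genes at 1000 bp, against 953. Without chromosomes 1, 8 and X it held 765, and no large state has enough genes there to pass the limit. The cause of the other shifts was not tested beyond the fewer or longer peaks that each setting leaves.

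Keeping peaks with −log10 q of at least 3 left 49 H2AK119ub peaks and gave 6223 genes with H3K4me3 alone, 772 with H3K4me3, H3K27me3 and H3K27ac and 26 with H3K4me3, H3K27me3 and H2AK119ub. H3K27me3 was then at 100% of the H2AK119ub genes and H3K4me3 at 85.5% of the H3K27me3 genes. Median H3K4me3 length with H3K27ac was 2010 bp, median H3K27me3 length with H2AK119ub 9894 bp, and 71.2% of the genes were in the same state in WT. A fold of at least 4 gave, in the same order, 5947, 452 and 432 genes, and 2328 bivalent genes, with 79.8%, 1987 bp, 8630 bp and 64.5% for the later values. Cutting each list to 2388 peaks gave 15967 unmarked genes, 1482 with H3K4me3 alone, 45 bivalent, 1136 with H3K4me3 and H3K27ac, 14 with H3K27me3 added and 15 with H3K4me3, H3K27me3 and H2AK119ub. The shares were 82.3% of the H2AK119ub genes with H3K27me3, 3.60% of the H3K27me3 genes with H3K4me3 and 53.0% in the same WT state, and the medians were 2022 bp of H3K4me3 with H3K27ac (1937 bp with H3K27me3 added) and 2099 bp of H3K27me3 with H3K27ac. Of the Hox genes, 37 of 40 then had H3K27me3 and H2AK119ub alone.

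Requiring 500 bp of the window to be covered gave 849 genes with H3K4me3, H3K27me3 and H3K27ac, 83.2% of the H3K27me3 genes with H3K4me3, and medians of 2055 bp of H3K4me3 and 877 bp of H3K27me3 with H3K27ac and 8501 bp with H2AK119ub. Using the 5′-most TSS gave 91.2% of the H3K27me3 genes with H3K4me3. Joining peaks up to 3000 bp apart gave medians of 1819 bp of H3K4me3 with H3K27ac and 9370 bp of H3K27me3 with H2AK119ub. Counting only H3K27me3 peaks of 1000 bp or more, an alternative chosen after seeing the data, gave 4477 and 530 genes with H3K4me3 and H3K27ac without and with H3K27me3, 95.2% of the H2AK119ub genes with H3K27me3 and 90.4% of the H3K27me3 genes with H3K4me3. A CpG window of 250 bp before to 50 bp after the TSS gave medians of 0.18 unmarked, 0.71 with H3K4me3, 0.83 with H3K27ac added, 0.88 with H3K27me3 and H3K27ac added and 0.72 with H3K27me3 and H2AK119ub added.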

Other observations

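Genes on the X chromosome had fewer marks in Delta. No H2AK119ub peak was called on X in either genotype. Of the 932 X genes, 44.4% had H3K4me3 (61.0% of the other genes), 10.8% had H3K27me3 (33.7%) and 4.61% had H3K27ac (23.6%). The X genes with a mark were mostly in the state of H3K4me3 alone, at 290 genes (31.1% of X genes, against 17.0% of the others). H3K4me3, H3K27me3 and H3K27ac together were found at 2 X genes. The number of X chromosomes was not measured here.

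In bivalent Delta genes, the WT state followed the length of H3K27me3 in Delta. The 330 genes with H3K4me3 alone in WT had a median H3K27me3 length of 482 bp (424 to 562) in Delta, the 131 with H3K27ac added in WT had 1042 bp (648 to 1681), the 2178 that were bivalent in both had 2704 bp, and the 703 with H2AK119ub in WT had 4412 bp. Over the genome, 46.2 Mb lay under a Delta peak of any mark. H3K27me3 alone covered 48.6% of that length, H3K4me3 alone 26.8%, and both together without the other marks 11%.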
